A study of Mus musculus with 8 samples.

Results

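The guanylate-binding proteins (GBPs) are large GTPases encoded by a gene family that responds to interferon, and the genes described here were those with the symbols Gbp2, Gbp3, Gbp4, Gbp5, Gbp6, Gbp7, Gbp8 and Gbp9. They were chosen by symbol from the list of features, where 9 of 27998 rows carried these 8 symbols, and 8 of the 9 rows held transcripts. A second row under the symbol Gbp6 (ENSMUSG00000079362) held 0 transcripts in every library and is left out of the counts below. The cells were hematopoietic stem and progenitor cells (HSPCs) from the bone marrow of wildtype mice aged 12 to 14 weeks. They were sorted as lineage-negative c-Kit+ (LK) cells, to which LK SLAM CD34- hematopoietic stem cells (HSCs) had been added. Mice received 1 subcutaneous injection of 50000 international units of recombinant mouse IFNα per 20 g of body weight and were examined 3 h, 24 h or 72 h later. Control mice received 100 µl of phosphate-buffered saline (PBS). Each of the 4 groups held 4 mice, whose cells were marked with hashtag antibodies and pooled in 1 droplet library per group.

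After filtering, 10046 cells from 16 mice remained, with 2474 control cells, 1661 cells at 3 h, 3462 at 24 h and 2449 at 72 h. Transcripts were counted as unique molecular identifiers (UMIs), and their sum per mouse ranged from 1102706 to 26446327. The median was 18964.5 UMIs per cell in the control library, 12017 at 3 h, 18953.5 at 24 h and 14763 at 72 h. Control mouse 4 gave 58 cells and the other mice 330 to 1240. Only 3 barcodes of kept cells occurred in more than 1 library. Because each time point was 1 library, an effect of time and an effect of library cannot be told apart. All 16 mice were treated as separate replicates on the basis of their hashtags. Within every group, the counts of any pair of mice differed by more than sampling noise of UMIs (chi-square per degree of freedom 1.86 to 5.27). Because UMIs of 1 cell are not independent, this value cannot show that the replicates are separate. Markers of B, T, NK, plasmacytoid dendritic, macrophage and mature neutrophil cells were nearly absent: without Bst2, which responds to interferon itself, the 13 others summed to 2.72 to 7.22 counts per 1000000 UMIs (CPM) in control mice and 0.204 to 4.21 at 3 h, when Ms4a1, Cd3e, Cd3g, Siglech and Ly6g were among those at 0. With Bst2 the 14 markers summed to between 187 and 205 CPM in control mice and between 976 and 1117 at 3 h.

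GBPs are known as effectors of cell-autonomous immunity. Several of them assemble on the membranes of vacuoles that hold bacteria or parasites, and on bacteria free in the cytosol, which exposes the pathogen and feeds inflammasome activation. Some members, among them Gbp2 and Gbp5, end in a CaaX motif that is prenylated and anchors the protein to membranes, and the autophagy machinery that conjugates Atg8 proteins guides GBPs to their targets. The genes are classical targets of interferon gamma and also respond to type I interferon.

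The 8 genes lay in clusters on chromosomes 3 and 5 (GRCm38, GENCODE vM21). On the plus strand of chromosome 3 the order was Gbp5 (chr3:142493978-142522344), Gbp7 (chr3:142530342-142550149), Gbp3 (chr3:142560026-142573209) and Gbp2 (chr3:142620602-142638008). On the minus strand of chromosome 5 lay Gbp8 (chr5:105014150-105139540), Gbp9 (chr5:105077630-105139539), Gbp4 (chr5:105115767-105139586) and Gbp6 (chr5:105270702-105293698). All 8 are annotated as protein-coding. The annotated bodies of Gbp8, Gbp9 and Gbp4 overlap each other on the same strand. The second Gbp6 row corresponds to a readthrough gene, Gm43302, whose body covers that of Gbp6. The kit reads the 3′ ends of transcripts, so the last 500 bases of each annotated transcript were compared between family genes in windows of 90 bases. For Gbp6, 65.5% of windows occurred in another Gbp gene, against 6.81% for Gbp4, 0.246% for Gbp3 and 0% for Gbp2, Gbp5, Gbp7, Gbp8 and Gbp9. The shared windows of Gbp6 occurred in its neighbor Gbp10 or in the second Gbp6 row. The second Gbp6 row held 0 UMIs, so no counts of Gbp6 went to it. How reads from the shared windows were counted was not tested, and the values of Gbp6 are uncertain in that respect. All windows of Gbp10 were shared too, but with the second Gbp6 row and not with the counted one.

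The region upstream of a GBP gene is of interest because type I interferon acts through the interferon-stimulated response element (ISRE) and interferon gamma through the gamma-activated site (GAS). The core of the ISRE (GAAANNGAAA, read on both strands) occurred in 1131 of 32851 RefSeq promoters of the GRCm38.p6 build, or 3.44%, and GAS (TTCNNNGAA, a palindrome) in 2726, or 8.30%. Each promoter spans 300 bases, from 250 before to 50 after the start. The promoter table held 6 entries for GBP genes, all on chromosome 3, of which 5 contained the ISRE core and 2 contained GAS. Promoters of Gbp4, Gbp6, Gbp8 and Gbp9 were not analysed here. The stretches that hold the matches are printed 5′ to 3′ on the plus strand, with motifs in capitals. The ISRE core was read on the minus strand in each of them and therefore appears as TTTCNNTTTC.
Gbp5 (chr3:142496684-142496899), 2 GAS matches and 1 ISRE core: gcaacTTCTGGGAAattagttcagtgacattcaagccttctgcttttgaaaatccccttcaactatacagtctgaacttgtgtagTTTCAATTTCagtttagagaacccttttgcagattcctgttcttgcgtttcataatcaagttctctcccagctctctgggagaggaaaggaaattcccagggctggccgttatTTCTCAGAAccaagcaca
Gbp7 (chr3:142530220-142530302), 2 GAS matches and 1 ISRE core: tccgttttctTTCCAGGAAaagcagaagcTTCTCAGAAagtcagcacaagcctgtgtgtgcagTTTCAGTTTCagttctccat
Gbp3 (chr3:142559989-142560024), 2 overlapping ISRE cores: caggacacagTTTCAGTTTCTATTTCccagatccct
Gbp2b (chr3:142594700-142594729), 1 ISRE core: gtacttctaaTTTCACTTTCttctttatca
Gbp2 (chr3:142620594-142620623), 1 ISRE core: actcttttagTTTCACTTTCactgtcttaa
The ISRE cores began 39 to 165 bases before the RefSeq starts. These starts differ from those of the GENCODE gene bodies given above: the RefSeq starts of Gbp5 (142496934), Gbp3 (142560044) and Gbp2 (142620663) lie inside the bodies, and so do the ISRE cores of Gbp5 and Gbp2. The core of Gbp2 falls in an annotated GENCODE exon. A second annotated start of Gbp3 had no match. Gbp2b is the neighbor of Gbp2 and was represented by 1 UMI in all kept cells, at 3 h, although its promoter holds the same ISRE core letters as that of Gbp2. A match describes the letters of the window and not a bound site.

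The transcripts of all 8 GBP genes were higher in the mice 3 h after IFNα than in control mice. The levels are given in CPM of all UMIs of a mouse, scaled by TMM factors. Gbp7, which has been linked to assembly of the NADPH oxidase on phagosomes, stood at 34.1, 33.1, 35.5 and 40.9 CPM in control mice 1 to 4 and at 329, 337, 336 and 283 CPM in the mice at 3 h. Gbp2, a prenylated member that acts at pathogen vacuoles, stood at 8.13, 8.23, 9.10 and 5.22 CPM in control mice and at 84.0, 88.3, 105 and 79.1 CPM at 3 h. The groups were far apart for both genes, and the same held for the other prenylated member with a known role in inflammasome activation, Gbp5. Its values were 6.48, 5.28, 6.65 and 6.09 CPM in control mice and 52.1, 55.6, 47.4 and 43.6 CPM at 3 h. Gbp3, one of the members that gather at vacuoles of Toxoplasma, started at 22.5, 21.7, 19.7 and 16.5 CPM and reached 88.4, 81.1, 101 and 92.9 CPM.

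The genes of chromosome 5 were counted with fewer UMIs (387 to 563 each over all kept cells, against 2551 to 15434 for the chromosome 3 genes), and their values scattered more between mice. Gbp6 rose from 0.311, 0.852, 0.479 and 0.870 CPM in control mice to 14.2, 18.7, 21.4 and 13.5 CPM at 3 h. Gbp9 rose from 0.674, 0.965, 0.319 and 2.61 CPM to 9.41, 13.3, 20.4 and 8.72 CPM. For both genes mouse 3 was the highest of the 3 h group and mouse 4 the lowest, and this order was shared by Gbp4. Gbp4 went from 0.570, 1.14, 0.904 and 0.870 CPM to 8.53, 14.4, 15.6 and 6.74 CPM, and Gbp8 from 1.35, 1.99, 0.532 and 1.74 CPM to 4.38, 7.63, 5.82 and 3.96 CPM. Every mouse at 3 h lay above every control mouse for each of the 8 genes. The share of all genes separated in this way was not determined, so the separation is given as a description.

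**Figure D1:**
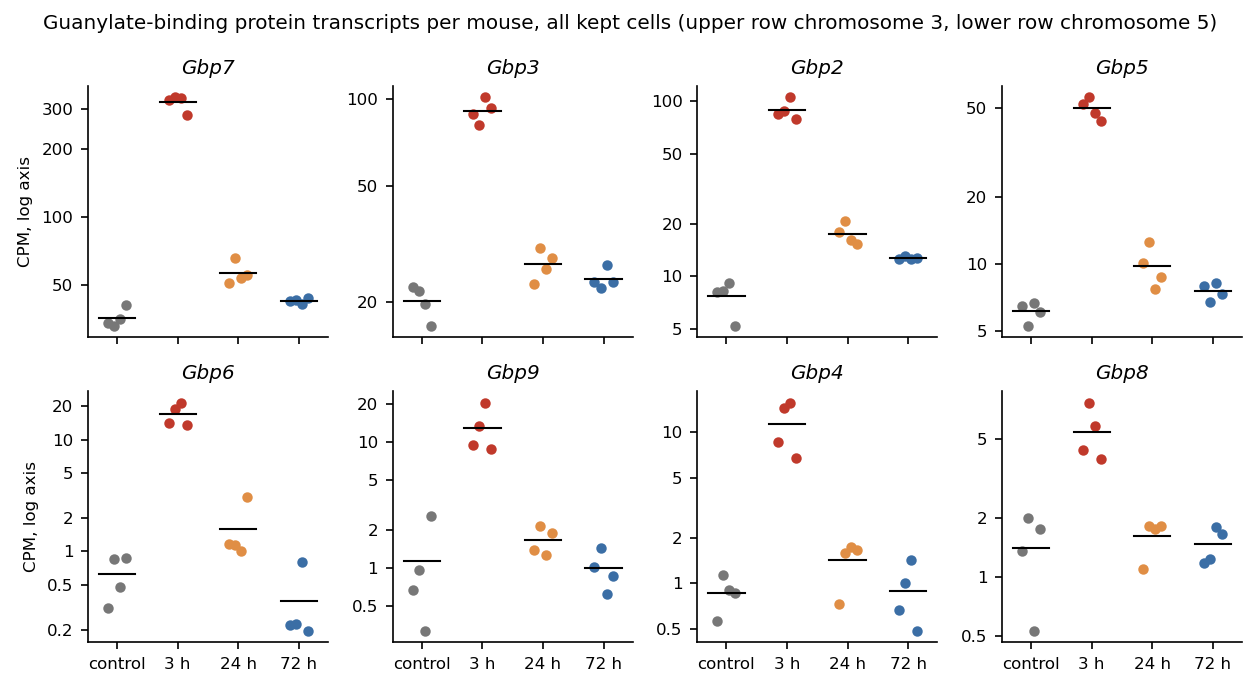
CPM of each of the 8 GBP genes (log axis, differing between panels) in every mouse, by time after IFNα, with the group mean as a line and the chromosome 3 genes in the upper row. All mice at 3 h lie above all control mice in each panel, and the 24 h and 72 h means lie nearer to the control mean than to the 3 h mean. At 24 h all mice still lie above all control mice for Gbp2 (mean 17.4 against 7.67 CPM), Gbp3, Gbp5, Gbp6 and Gbp7. The share of all genes separated in this way was not determined.

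In edgeR's quasi-likelihood test over 12042 genes, all 8 GBP genes were called higher at 3 h, where calls needed a log2 fold change beyond 1 in either direction besides a p under 0.05 after Benjamini-Hochberg adjustment. Of all genes tested, 5.22% were called higher in this comparison. The median log2 fold change of the 8 genes was 3.32, beside -0.03 for all genes. Gbp6 had the largest fold change (log2 4.95, SE 0.35, adjusted p = 6.7e-11), followed by Gbp9 (4.25, SE 0.33, adjusted p = 4.8e-10) and Gbp4 (3.72, SE 0.31, adjusted p = 1.7e-09). Next came genes of chromosome 3, with log2 3.42 for Gbp2 (SE 0.11), 3.22 for Gbp7 (SE 0.08) and 3.01 for Gbp5 (SE 0.13). Without control mouse 4, the mouse with 58 cells, all 8 were called as well. Gbp3 and Gbp8 changed least, by log2 2.11 (SE 0.09, adjusted p = 4.9e-15) and 2.07 (SE 0.30, adjusted p = 8.4e-06). Neighbors in this order often did not differ beyond their errors, as for Gbp9 and Gbp4 or for Gbp3 and Gbp8. In sums over all cells of a mouse, a change in the number of cells of a type and a change of RNA per cell cannot be told apart, and the HSC-like cells described below made up 17.2% of kept control cells and 33.2% at 3 h. The changes within classes of cells are therefore given separately.

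By 24 h most of the increase had gone. Gbp7 was at 51.0, 66.0, 53.5 and 55.2 CPM in mice 1 to 4, and 7.18% of its mean gain at 3 h was left. Gbp2 was at 17.9, 20.6, 16.1 and 15.2 CPM, with 12.0% of the gain left, the highest of the 8 shares with or without control mouse 4. Gbp9 was at 1.40, 2.17, 1.28 and 1.90 CPM, with 4.61% left, a share that was 8.41% without control mouse 4, whose 2.61 CPM were 3 UMIs. Without that mouse the lowest share was that of Gbp4, at 5.40%. All 8 genes were called lower at 24 h than at 3 h (edgeR, adjusted p at most 4.0e-05), against 2.93% of all genes, with log2 fold changes from -3.38 for Gbp6 to -1.72 for Gbp8 and a median of -2.43. The comparisons that follow share the same 4 control mice. HSC-like cells, described below, made up 24.6% of kept cells at 24 h, against 17.2% in control. The part of this in the values over all cells at 24 h was not tested, and values within classes are given below. Against control, 3 genes were still called higher at 24 h, where 1.46% of all genes were: Gbp6 (log2 1.57, SE 0.43, adjusted p = 0.0090), Gbp9 (1.33, SE 0.39, adjusted p = 0.013) and Gbp2 (1.06, SE 0.11, adjusted p = 2.4e-07). DESeq2 called only 2 of the 8, without Gbp9 (log2 1.18, adjusted p = 0.073), and each of the 3 edgeR calls depended on single mice. Without 24 h mouse 2, Gbp6 alone was called, Gbp2 falling to log2 0.96 and Gbp9 to an adjusted p of 0.060. Without 24 h mouse 4 (adjusted p = 0.051) or control mouse 1 (adjusted p = 0.055) the call of Gbp6 was lost, and without control mouse 3 that of Gbp9 (adjusted p = 0.086). Gbp7 (log2 0.71, SE 0.07), Gbp5 (0.69, SE 0.13) and Gbp3 (0.37, SE 0.09) passed the adjusted p at 24 h with smaller changes, while Gbp4 (0.76, SE 0.36, adjusted p = 0.12) and Gbp8 (0.35, SE 0.30, adjusted p = 0.41) did not.

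At 72 h edgeR called 0 of the 8 genes, where 1.7% of all genes were called higher. DESeq2 also called 0, and 2 genes had an unadjusted p under 0.05, as did 45.8% of all genes. These 2 were Gbp2 and Gbp7. Gbp2 stood at 12.6, 13.02, 12.5 and 12.7 CPM in the 4 mice, all above every control mouse, a log2 fold change of 0.60 (SE 0.12, adjusted p = 7.0e-04). Gbp7 stood at 42.4, 42.8, 41.2 and 43.8 CPM, also above every control mouse, with log2 0.30 (SE 0.08, adjusted p = 0.0052). The HSC-like cells described below made up 30.2% of kept cells at 72 h, against 17.2% in control. The part of this in the sums over all cells was not tested, and values within classes are given below. The other 6 genes ranged from -0.57 for Gbp6 (SE 0.66) to 0.49 for Gbp9 (SE 0.48). Among them Gbp5 also lay above every control mouse, at 6.73 to 8.22 CPM against 5.28 to 6.65 CPM (log2 0.31, SE 0.15, edgeR adjusted p = 0.12). The share of all genes separated in this way at 72 h was not determined. Between 24 h and 72 h only Gbp6 was called lower, by log2 -2.15 (SE 0.51, edgeR adjusted p = 0.0084), where 0.648% of all genes were, from 1.18, 1.14, 1.01 and 3.06 CPM to 0.221, 0.224, 0.804 and 0.194 CPM.

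To see which cells carried these transcripts, control cells were clustered without the GBP genes, clusters were named from marker lists, and the names were transferred to the treated cells. Classes are called HSC-like, LMPP-like (lymphoid-primed multipotent progenitors), myeloid progenitor-like, monocyte-like, erythroid progenitor-like and MK (megakaryocyte) progenitor-like. The HSC-like class joined 2 clusters that share Hlf and Ly6a, of which the smaller, with 161 control cells, was also led by Jchain, Ltb, Cd74 and Mzb1. The larger, with 264 control cells, had the LMPP markers Wfdc17 and Dntt ahead of Hlf among its 10 leading genes. The LMPP markers summed to 655 CPM in HSC-like and 648 CPM in LMPP-like control cells, and the HSC markers to 1349 and 376 CPM, so that the LMPP list did not separate these classes. The monocyte-like cluster had as many myeloid progenitor as monocyte markers among its 10 leading genes, and its name rests on a tie rule chosen after these genes were seen. The classes held 425, 338, 521, 212, 253 and 283 control cells and 551, 230, 147, 116, 123 and 218 cells at 3 h, in the order named. Some cells are in none of these classes. They include clusters that got no name, with 187, 160 and 35 control cells and 155, 101 and 6 cells at 3 h. Another cluster, with 60 control cells and 14 at 3 h, had markers of basophil, mast cell and eosinophil progenitors and was not used as a class. The added CD34- HSCs set the share of HSC-like cells in part. Control mouse 4 had at least 10 cells in only the HSC-like (12 cells) and myeloid progenitor-like classes (11 cells) and was left out of the others, so that these have 3 control mice.

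The chromosome 5 genes were found mainly in HSC-like cells. At 3 h these cells held 86.7% ± 7.0 (SD, n = 4 mice) of the UMIs of Gbp8, 76.8% ± 6.9 of those of Gbp4, 75.4% ± 6.0 of those of Gbp9 and 56.1% ± 14.3 of those of Gbp6. The chromosome 3 genes were spread more widely, with 43.2% ± 7.2 of Gbp5, 41.8% ± 6.1 of Gbp2, 35.6% ± 5.0 of Gbp7 and 35.3% ± 2.4 of Gbp3 UMIs in HSC-like cells. Over all genes, 21.8% of the UMIs at 3 h lay in these cells. The lowest mouse for Gbp8 had 78.3% and the highest mouse for Gbp5 51.4%, so that Gbp8 did not overlap with any chromosome 3 gene, and neither did Gbp4 or Gbp9, whose lowest mice had 70.6% and 67.4%. Gbp6 overlapped, with a range of 36.8% to 68.6%. In pooled control cells the same direction was seen on few UMIs: 42 of 73 for Gbp8, 24 of 49 for Gbp4, 21 of 39 for Gbp9 and 14 of 31 for Gbp6 lay in HSC-like cells. For the chromosome 3 genes these were 134 of 479 (Gbp2), 97 of 350 (Gbp5), 343 of 1956 (Gbp7) and 101 of 1207 (Gbp3). Per control mouse the genes of both chromosomes overlapped, as for Gbp4 (0% to 90.9%) and Gbp2 (22.1% to 66.7%).

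**Figure D2:**
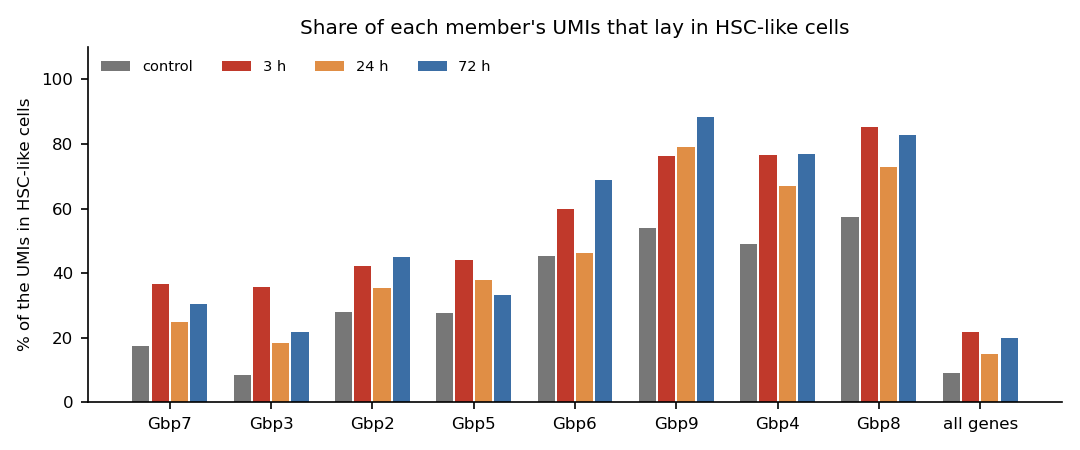
Share of the UMIs of each GBP gene that lay in HSC-like cells (y axis, percent of UMIs pooled over the mice of a group), by time point, with the share over all genes at the right. At 3 h the bars of Gbp8 (85.1%), Gbp4 (76.7%), Gbp9 (76.4%) and Gbp6 (59.8%) stand above those of Gbp5 (43.9%), Gbp2 (42.2%), Gbp7 (36.6%) and Gbp3 (35.7%), and all stand above that of all genes (21.8%).

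In the other named classes, the chromosome 5 genes were counted with few UMIs at 3 h. Of their 1080 UMIs over all kept cells, 772 lay in HSC-like, 87 in MK progenitor-like and 75 in LMPP-like cells. The myeloid progenitor-like class held 15, and the monocyte-like and erythroid progenitor-like classes 13 each. The rest lay in cells of no class and are not described by gene. In MK progenitor-like cells Gbp6 had 44 UMIs (17.7 CPM ± 6.06, SD, n = 4), Gbp9 had 24 (9.88 CPM ± 4.35) and Gbp4 had 14 (5.83 CPM ± 3.60), beside 4, 3 and 4 UMIs in the 3 control mice. In LMPP-like cells Gbp6 had 38 UMIs (11.2 CPM ± 2.07), Gbp4 had 21 (5.11 CPM ± 4.91) and Gbp9 had 11 (2.56 CPM ± 3.11), where mouse 3 held 15 of the 21 and 9 of the 11 UMIs. Gbp8 had 5 UMIs in each of these classes. The erythroid progenitor-like class lay lower. Gbp8 had 0 UMIs in erythroid progenitor-like cells in all 4 groups, which at 3 h allows up to 1.24 CPM by counting error alone (3 UMIs), beside 22.6 CPM ± 5.36 (SD, n = 4) in HSC-like cells. Gbp4 had 2 and Gbp9 had 4 UMIs in erythroid progenitor-like cells at 3 h, and 0 in control cells. Gbp6 went from 0 to 10 UMIs in myeloid progenitor-like cells, 17.1-fold higher than the floor of 3 UMIs over the control group. In erythroid progenitor-like cells Gbp6 went from 0 to 7 UMIs, 7.79-fold higher than the floor of that class. These ratios take the counts at 3 h as exact and are not lower bounds. The chromosome 5 genes together made up 13.4% ± 2.63 of GBP transcripts per mouse in HSC-like cells at 3 h, against 6.01% ± 2.14 in MK progenitor-like, 4.65% ± 1.28 in LMPP-like, 2.18% ± 1.48 in monocyte-like, 1.89% ± 1.73 in myeloid progenitor-like cells and, at the lower end, 0.957% ± 0.596 in the erythroid progenitor-like class (SD, 4 mice each). In HSC-like cells this share was 14.0% ± 3.76 in control mice, so it differed between control and 3 h by less than the spread between mice.

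In HSC-like cells themselves, edgeR called all 8 GBP genes higher at 3 h, where 4.20% of the 9886 genes tested were. Gbp7 went from 66.8, 66.6, 66.2 and 61.4 CPM in control mice to 576, 577, 559 and 501 CPM (log2 3.06, SE 0.09). Gbp3 went from 21.1, 15.8, 22.3 and 0 CPM to 151, 135, 153 and 187 CPM (log2 3.00, SE 0.17), the value of 0 belonging to control mouse 4 with its 12 cells. Gbp2 went from 31.7, 22.9, 22.3 and 30.7 CPM to 168, 196, 186 and 167 CPM (log2 2.79, SE 0.12). The control and 3 h mice did not overlap for any of the 8 genes, and here too the share of all genes without overlap was not determined. Gbp6 (log2 4.10, SE 0.39), Gbp9 (3.56, SE 0.31) and Gbp4 (3.17, SE 0.27) rose from 4.0, 3.2 and 3.6 CPM to 45.9, 46.0 and 41.1 CPM on average. Outside the 3 h group Gbp6 lay near or below the filter on low counts, with means of 5.27 CPM at 24 h and 1.24 CPM at 72 h. Its call in this class was therefore likely favored in advance and adds no support to the 8. Gbp5 rose by log2 2.45 (SE 0.19). Gbp8 changed least, from 10.0, 8.60, 5.43 and 15.3 CPM to 21.9, 30.3, 18.4 and 19.8 CPM (log2 1.43, SE 0.27, adjusted p = 1.0e-04). At 3 h, for each of the 8 genes, every HSC-like sum of a mouse lay above every sum of the 5 other classes. The share of all genes ordered in this way was not determined, so this too is given as a description. Relative to the level, the smallest gap was that of Gbp2, between 167 CPM in HSC-like cells and 140 CPM in erythroid progenitor-like cells.

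The other classes also raised the GBP genes that could be tested in them. At 3 h edgeR called 5 of 5 tested genes in LMPP-like cells (3.50% of all genes were called higher), 4 of 4 in myeloid progenitor-like cells (3.06%), 3 of 4 in monocyte-like cells (3.25%), 4 of 4 in erythroid progenitor-like cells (4.05%) and 5 of 5 in MK progenitor-like cells (3.67%). The genes tested were Gbp2, Gbp3, Gbp5 and Gbp7 in each class, with Gbp6 added in LMPP-like and MK progenitor-like cells. The others had too few UMIs, so these counts say nothing about them. In LMPP-like and MK progenitor-like cells Gbp6 passed the filter on low counts only through its level at 3 h. Its calls there were therefore favored in advance and add no support to the 5 of 5. Gbp6 rose by log2 4.10 in LMPP-like (SE 0.64) and 4.11 in MK progenitor-like cells (SE 0.65). Gbp7 rose by log2 2.35 in myeloid progenitor-like to 3.66 in erythroid progenitor-like cells, and Gbp5 by 2.39 to 3.63 in the same classes.

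Gbp3 varied most between classes. In control mice its mean was 41.3 CPM in monocyte-like, 26.0 in myeloid progenitor-like, 24.9 in LMPP-like, 14.8 in HSC-like, 6.09 in MK progenitor-like cells and 2.55 in the erythroid progenitor-like class. At 3 h the order had changed, with 157 CPM in HSC-like, 86.7 in erythroid progenitor-like, 74.3 in monocyte-like, 73.1 in LMPP-like, 70.3 in MK progenitor-like and 57.2 in myeloid progenitor-like cells. The last 5 of these overlapped between mice. In monocyte-like cells Gbp3 went from 41.1, 43.8 and 39.1 CPM in the 3 control mice to 77.6, 79.3, 81.7 and 58.6 CPM, a log2 fold change of 0.84 (SE 0.16, adjusted p = 2.4e-04) that fell short of the fold required. In myeloid progenitor-like cells it rose by log2 1.04 (SE 0.14), just past the fold, which dropped to 0.98 without 3 h mouse 2, to just under 1 without control mouse 3 and to 0.91 when scaled by library size alone. In erythroid progenitor-like cells it rose from 1.47, 3.86 and 2.31 CPM to 91.6, 62.8, 99.5 and 92.7 CPM (log2 5.08, SE 0.27).

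These differences were tested directly, as the rise at 3 h in a class minus that in HSC-like cells of the same mice, over 10731 genes with edgeR. The rise of Gbp3 was smaller than in HSC-like cells by log2 -1.38 in LMPP-like (SE 0.27, adjusted p = 0.0012), -1.95 in myeloid progenitor-like (SE 0.24, adjusted p = 4.6e-09) and -2.15 in monocyte-like cells (SE 0.26, adjusted p = 1.0e-09). Without control mouse 2 the difference in LMPP-like cells was -1.20 with an adjusted p of 0.062. In erythroid progenitor-like cells the rise was larger for Gbp3, by log2 2.06 (SE 0.40, adjusted p = 3.9e-04), and for Gbp2, by 2.19 (SE 0.39, adjusted p = 9.9e-05). Gbp2 there went from 2.94, 3.43 and 2.96 CPM to 79.5, 79.9, 115 and 140 CPM. This class was made up of 2 clusters, of which the one led by Hba-a1, with a median of 52005 UMIs per control cell, held 34.4% of the control class but 23.6% of it at 3 h, 22.6% after 24 h and 27.1% after 72 h, and its part in the results was not tested. The rise of Gbp7 was smaller in myeloid progenitor-like cells, by log2 -0.70 (SE 0.17, adjusted p = 0.0067), where the class was also made up differently: 180 of 521 control cells against 18 of 147 cells at 3 h came from the S100a8-expressing cluster, and the part of this in the result was not tested. A smaller rise was called for 0.289% of all genes in LMPP-like, 1.45% in myeloid progenitor-like, 1.49% in monocyte-like cells and 1.67% in the erythroid progenitor-like class, and a larger one for 0.028%, 0.494%, 0.485% and 0.876% in the same order. In MK progenitor-like cells edgeR called 0 GBP genes different, with 0 at an unadjusted p under 0.05, beside 0.0559% of all genes with a smaller and 0% with a larger rise. For Gbp5 no difference from HSC-like cells passed the test, with values of -0.04 (SE 0.44) to 1.10 (SE 0.54). DESeq2 was not run for these differences.

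**Figure D3:**
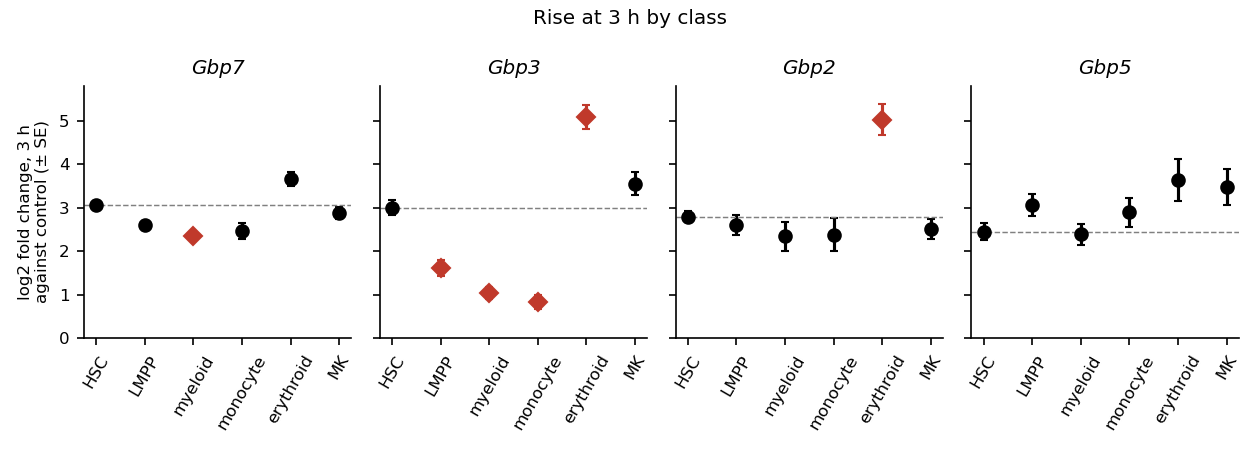
Log2 fold change at 3 h against control (y axis, with SE) of Gbp7, Gbp3, Gbp2 and Gbp5 in each class of cells. The dashed line marks the HSC-like value, and diamonds mark classes whose rise differed from it at an adjusted p under 0.05: Gbp3 ranges from 0.84 in monocyte-like to 5.08 in erythroid progenitor-like cells, while the values of Gbp5 lie between 2.39 and 3.63.

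At the later times the classes held few calls. At 24 h edgeR called 0 of 8 genes in HSC-like cells (0.678% of all genes) and 0 of 5 in LMPP-like cells (0.978%), 4 genes in each having an unadjusted p under 0.05 (16.7% and 17.7% of all genes), and DESeq2 called 0 in both. In HSC-like cells Gbp9 was at log2 1.20 (SE 0.38, adjusted p = 0.060) and passed without 24 h mouse 3 (0.039), 3 h mouse 3 (0.046) or control mouse 1 (0.033). Gbp2 was called higher in myeloid progenitor-like cells (log2 1.60, SE 0.27, adjusted p = 2.8e-05, 0.828% of all genes called) and in monocyte-like cells (1.44, SE 0.34, adjusted p = 0.0050, 0.989%). In the myeloid progenitor-like class the S100a8-expressing cluster made up 15.7% of cells at 24 h and 17.1% at 72 h, against 34.5% in control, and its part in the values of this class was not tested. The call in monocyte-like cells was lost without control mouse 1 (adjusted p = 0.080). In erythroid progenitor-like cells Gbp3 (log2 1.79, SE 0.35, adjusted p = 7.1e-04) and Gbp2 (1.78, SE 0.46, adjusted p = 0.011) were called, where 1.21% of all genes were, but Gbp2 not without 24 h mouse 1 (0.055), control mouse 1 (0.053) or control mouse 3 (0.061). In that class Gbp2 stood at 25.0, 9.23, 4.74 and 7.77 CPM at 24 h, with mouse 1 far above the others. In MK progenitor-like cells the call of Gbp3 (log2 1.15, SE 0.31, adjusted p = 0.024, 0.505% of all genes called) was lost without 24 h mouse 2 (0.12) or control mouse 1 (0.13), 2 (0.063) or 3 (0.087).

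At 72 h edgeR called 0 GBP genes in every class, where 0.425% of all genes were called higher in HSC-like, 0.553% in LMPP-like, 0.454% in myeloid progenitor-like, 0.523% in monocyte-like, 0.629% in erythroid progenitor-like and 0.393% in MK progenitor-like cells. An unadjusted p under 0.05 was found for Gbp3 (higher) and Gbp5 (lower) in HSC-like cells and for Gbp3 (higher) in the myeloid and erythroid progenitor-like classes, where 16.5%, 22.3% and 18.5% of all genes had one. DESeq2 made 1 call over the 6 classes, Gbp3 in erythroid progenitor-like cells. There edgeR gave log2 1.28 (SE 0.41, adjusted p = 0.070), from 1.47, 3.86 and 2.31 CPM in control mice to 6.60, 4.95, 6.64 and 6.13 CPM. The adjusted p passed without control mouse 2 (0.029) or 24 h mouse 1 (0.047). In myeloid progenitor-like cells Gbp3 was at 37.7, 48.5, 39.0 and 49.7 CPM at 72 h, above all 4 control values of 29.9, 26.5, 25.8 and 22.0 CPM, a log2 fold change of 0.65 (SE 0.12, adjusted p = 2.1e-04) that did not reach the fold required. Gbp5 in HSC-like cells, at 12.1, 13.02, 12.4 and 14.7 CPM, overlapped with the control mice at 24.5, 16.5, 14.7 and 23.02 CPM (log2 -0.53, SE 0.25, adjusted p = 0.27). Over the 6 classes, Gbp2 ranged from log2 0.0007 in LMPP-like (SE 0.29) to 0.54 in myeloid progenitor-like cells (SE 0.39). Gbp7 ranged from -0.23 in LMPP-like (SE 0.13) to 0.25 in erythroid progenitor-like cells (SE 0.18). In LMPP-like cells every mouse at 72 h lay below every control mouse for Gbp7 (32.2 to 33.6 against 33.8 to 43.0 CPM). The share of all genes separated in either direction was not determined in any class.

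The rise was broad over cells. With every cell thinned to 5000 UMIs, 29.9% ± 4.48 (SD, n = 4 mice) of control cells had at least 1 UMI of a GBP gene, 86.4% ± 1.62 at 3 h, 42.7% ± 3.49 at 24 h and 38.5% ± 1.95 at 72 h. Cells with fewer UMIs were left out (35 control cells, 61 at 3 h, 35 at 24 h and 68 at 72 h). Without thinning, the range over mice was 63.8% to 73.0% in control mice and 97.5% to 98.3% at 3 h. UMIs of at least 3 of the 8 genes were found in 0.764% ± 0.624 of control cells and 27.1% ± 4.21 of cells at 3 h. Gbp7 alone was found in 18.5% ± 1.21 of control cells and 73.5% ± 2.33 of cells at 3 h, and Gbp8 in 1.80% ± 1.25 and 3.49% ± 0.728. By class, the share of cells with any GBP UMI at 3 h was 96.6% ± 1.27 in HSC-like, 92.9% ± 5.53 in erythroid progenitor-like, 86.1% ± 5.85 in MK progenitor-like, 78.7% ± 2.82 in LMPP-like, 67.9% ± 5.91 in monocyte-like and 61.8% ± 4.85 in myeloid progenitor-like cells. Erythroid progenitor-like cells were the lowest class in control mice, at 17.8% ± 4.68 (n = 3). Free RNA in droplets can give UMIs to cells that do not express a gene. No class known to lack GBP transcripts was at hand, so no background share is given here, and the part of free RNA in these shares was not tested.

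**Figure D4:**
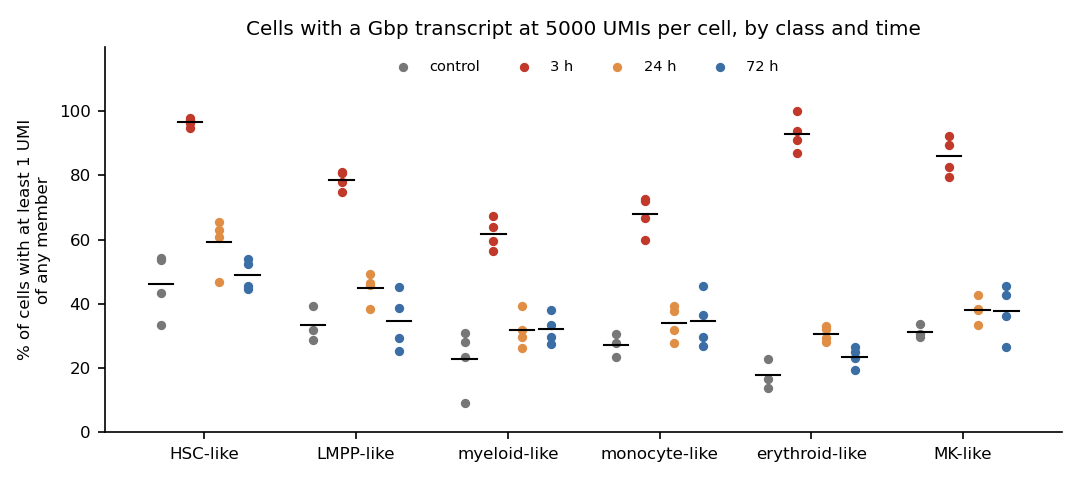
Percent of cells with at least 1 UMI of any of the 8 GBP genes after thinning to 5000 UMIs per cell (y axis), for every mouse by class and time, with the group mean as a line. At 3 h every mouse lies above every control mouse in all 6 classes, from a mean of 61.8% in myeloid progenitor-like to 96.6% in HSC-like cells. LMPP-like, monocyte-like, erythroid progenitor-like and MK progenitor-like cells have 3 control mice. How often other sets of genes separate in this way was not determined.

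The share of cells with a UMI was compared with control for each gene and time, 24 comparisons in all, by a two-sided exact permutation test over mice. With 4 mice against 4 its smallest possible p is 0.0286, which 13 comparisons reached, and none passed after Benjamini-Hochberg adjustment (adjusted p = 0.0527 for these 13). They were Gbp2, Gbp3, Gbp4, Gbp5, Gbp6, Gbp7 and Gbp9 at 3 h, Gbp2, Gbp3, Gbp5 and Gbp7 at 24 h, and Gbp2 and Gbp7 at 72 h. At 72 h the shares were 8.33% for Gbp2, against 4.83% in control mice, and 21.8% for Gbp7, against 18.5%. These shares are over cells of all classes, and the part of the changed mix of classes in them was not tested. Gbp8 at 3 h had an exact p of 0.0857.

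Genes around the GBPs were examined as fixed lists at 3 h, in sums over all cells, where 5.22% of all genes were called higher. Of the 14 genes for interferon receptors, kinases and factors, edgeR called 5 higher, among them the feedback inhibitor Socs1 (log2 2.97) and Stat2 (2.88). It called 1 lower, Irf8 (-1.12), where 202 of 12042 genes were called lower. Irf8 is a transcription factor of monocytic and dendritic progenitors, and in HSC-like cells it was at -0.30 (SE 0.37). Myeloid progenitor-like cells, whose marker list holds Irf8, made up 21.1% of kept control cells and 8.85% at 3 h. The part of this in the value of Irf8 over all cells was not tested. Within LMPP-like cells, edgeR and DESeq2 also called 1 gene of this list lower, where edgeR called 83 of 9407 genes lower. In the other classes they called 0 of the list lower. The immunity-related GTPases (IRGs), which act with GBPs at vacuoles, rose in 8 of 9 tested genes with a median of log2 4.17, led by Iigp1 (5.97), Gm4951 (5.42) and Tgtp1 (5.29). Of the 9 inflammasome genes downstream of GBPs, 2 rose, Il18 (2.33) and Casp4 (2.25), the latter encoding caspase-11. Of the 11 genes for Atg8 conjugation and the 6 for prenylation of CaaX ends, edgeR and DESeq2 called 0, although 6 and 4 of them had an unadjusted p under 0.05, 1 of these 10 higher and the others lower. Of all genes, 46.3% had such a p at 3 h, 38.8% at 24 h and 45.8% at 72 h. At 24 h edgeR and DESeq2 called 7 of 9 IRG genes, beside 1.46% of all genes by edgeR, and 0 in the other 4 lists, in which 10 of 14 receptor and factor genes, 4 of 11 Atg8 genes, 2 of 6 prenylation genes and 5 of 9 inflammasome genes had an unadjusted p under 0.05. At 72 h both tools called 0 in all 5 lists, beside 1.7% of all genes by edgeR, and 8, 3, 7, 3 and 4 genes of the receptor, IRG, Atg8, prenylation and inflammasome lists had an unadjusted p under 0.05.

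Of the other GBP genes, Gbp10 had 5, 28, 20 and 1 UMIs in the control, 3 h, 24 h and 72 h libraries and rose by log2 3.71 at 3 h (SE 0.65, adjusted p = 8.5e-05). Since all windows of its 3′ end are shared with the second Gbp6 row, this value is at least as uncertain as that of Gbp6. Gbp10 also passed the filter on low counts only through its level at 3 h, so its test was favored in advance and adds no support. Across the 16 mice, Pearson's r of each GBP gene with the mean log2 CPM of all 8 ranged from 0.92 for Gbp8 to 0.99 for Gbp7. Each gene is itself part of that mean, so a high r was favored in advance. Outside the family, the genes whose levels were most like this mean among 12033 compared were Igtp (r = 0.994), Parp14 (0.991), Ifi47 (0.991), Dtx3l (0.990) and Trafd1 (0.990). Igtp and Ifi47 encode IRGs, and Parp14 and Dtx3l encode enzymes of ADP-ribosylation and ubiquitination. These correlations describe 4 groups of mice from 4 libraries and rest on the difference between the 3 h group and the others.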

How the data were processed

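Droplet 3′ RNA sequencing of 4 libraries, each with 4 hashtagged mice, was analysed from the deposited UMI counts per gene and cell. The authors made these raw counts with Cell Ranger 3.1.0 on mm10 and used Seurat for later steps; the gene annotation is not given in the sources used here. The hashtag calls that came with the deposited counts assigned cells to mice, and barcodes called as doublets or negative were removed, with no further doublet caller. Cells with at most 5% mitochondrial UMIs and at least 700 genes were kept. Control cells were clustered (scanpy 1.11.5, 500 variable genes, Leiden resolution 0.8) and named from marker lists, and names were passed to treated cells over 15 nearest neighbors after a mutual nearest neighbor correction. GBP genes took no part in either step. Other genes that respond to interferon were not removed, and their part in the transfer of names was not tested.

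Counts were summed per mouse, and per mouse and class with at least 10 cells. Genes that passed filterByExpr were tested with edgeR 4.0.16 (TMM factors, quasi-likelihood F test, all 16 mice in 1 fit, Benjamini-Hochberg adjustment over all genes), in R 4.3.3 with limma 3.58.1. This replaced the likelihood ratio test of the study, which served as an alternative, as did DESeq2 1.42.0. SE was the log2 fold change divided by the square root of F. The difference between classes was tested in a model with a term for each mouse. Calls required an adjusted p under 0.05 and a log2 fold change above 1 or below -1 (differences between classes: adjusted p alone). The fits were tested on simulated data with known changes. Intervals and floors from counts cover counting error only. Promoter sequences came from RefSeq (GRCm38.p6), where 4 of the 8 symbols matched.

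The genes and lists were chosen with earlier results of these data known. The text names all 8 GBP genes, the other GBP genes, at most 3 called genes per list with the largest changes at 3 h, and the 5 genes most alike over mice. Some items that this rule would name are not reported here. Irf8 in HSC-like cells, and which cluster makes up the myeloid progenitor-like class, were added after values were seen. Alternatives were another scaling, no filter on low counts, each time point alone with control, the hashtag number as a block, other cell filters and label transfers, at least 50 cells per class, each mouse left out, and, chosen after seeing the data, the monocyte-like cluster joined with the myeloid progenitor-like class.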

Additional observations from a re-analysis of the deposited data

Results flagged for a closer look

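In 32 groups of 4 mice (8 GBP genes at 4 times, sums over all cells), 5 had 1 mouse far from the other 3 by Dixon's criterion, where chance gives about 1 in 20. Gbp7 was at 283 CPM in 3 h mouse 4, with the others between 329 and 337. Gbp6 was at 3.06 CPM in 24 h mouse 4 (others 1.01 to 1.18) and at 0.804 CPM in 72 h mouse 3 (others 0.194 to 0.224). In 24 h mouse 1, Gbp4 was at 0.734 CPM (others 1.58 to 1.75) and Gbp8 at 1.10 CPM (others 1.75 to 1.81).

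The rise at 3 h differed from that in HSC-like cells in 6 cases by edgeR's test of the difference (log2, adjusted p). Gbp3 rose less in LMPP-like (-1.38, 0.0012), myeloid progenitor-like (-1.95, 4.6e-09) and monocyte-like cells (-2.15, 1.0e-09) and more in erythroid progenitor-like cells (2.06, 3.9e-04). Gbp2 rose more in erythroid progenitor-like cells (2.19, 9.9e-05), and Gbp7 less in myeloid progenitor-like cells (-0.70, 0.0067).

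Barcodes that entered no comparison also held GBP transcripts. In the 3 h library, the 422 barcodes with no hashtag call had 297 GBP UMIs per 1000000 UMIs, against 58.1 in the 166 such control barcodes. Barcodes with 2 or more hashtags had 545 against 69.8, and barcodes with 1 hashtag that failed the cell filter 462 against 82.2. Kept cells of the same libraries had 561 and 75.7.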

How the results depend on the processing

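All 8 GBP genes were called higher at 3 h over all cells and in HSC-like cells under every alternative run, mice left out included. In HSC-like cells, the filter on low counts likely favored the call of Gbp6, as described above. The calls at 24 h were less stable. Over all cells, the 3 called genes became 1 to 3 when mice were left out (1 without 24 h replicate 2) and 2 with DESeq2. In HSC-like cells, 0 became 1 without a filter on low counts and with the likelihood ratio test, and 0 to 1 with mice left out. The count was 0 to 1 with mice left out in monocyte-like cells (otherwise 1) and 1 to 2 in erythroid progenitor-like cells (otherwise 2). In MK progenitor-like cells 1 became 0 with the hashtag number as replicate block, and 0 to 1 with mice left out. At 72 h in erythroid progenitor-like cells, 0 became 1 with DESeq2 and with the likelihood ratio test, and 0 to 1 with mice left out. The smaller rise of Gbp3 in LMPP-like cells gave 0 to 1 genes with mice left out. Without thinning, 14 of 24 comparisons of the share of cells with a UMI passed, against 0 with it. Comparisons at the smallest possible p of the exact permutation test share 1 adjusted p. It was 0.0490 without thinning and 0.0527 with it, just on either side of 0.05, so that they passed or failed together. The cause of the other changes was not tested. No result changed direction past its threshold.

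The hashtag numbers showed no clear pairing of mice. Over 24 pairs of the same number, the deviations correlated at -0.11 to 0.18 (median 0.04), against a median of -0.003 for other pairs. Of 16 mice, 6 were most like a mouse of their own number, and the number given by chance was not determined. This check cannot tell weak pairing from none. The block changed no other count by over 1.5 times. With at least 50 cells per mouse, no 3 h mouse was left in the myeloid progenitor-like, monocyte-like and erythroid progenitor-like classes, so that this alternative was not run there. Depth limits the chromosome 5 genes outside HSC-like cells.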
